A study of Mus musculus with 43 samples.

Results

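The 34 genes described here are p53, encoded by Trp53, its partners and its target genes, chosen by name. The choice was made with earlier results of these data known, so counts of these genes beside all genes are descriptive. All 34 are rows of a table of 23256 genes, and all 34 reached a normalised read count of at least 10 in at least 4 libraries, as did 19170 genes in all. A normalised read count is the number of reads of a gene divided by a size factor for its library. The libraries hold poly-A RNA of back skin from female mice aged 10 to 13 weeks, in 43 samples of 3 strains that the labels call iNZM, NZM and WT. The study's title names the lupus-prone strain NZM2328 and type I interferon, and in lupus research iNZM commonly stands for the NZM2328 strain with its type I interferon receptor deleted, although the labels define neither iNZM nor WT. Skin was either exposed to chronic UVB, 100 mJ/cm2 on each of 5 days, or to acute UVB, a single dose of 300 mJ/cm2, or left without UVB. Biopsies were taken 24 hours after the last dose, so both the total dose and the time since the first dose differ between the regimens. Each strain and regimen had 5 libraries, except iNZM without UVB and WT without UVB, which had 4 each. Nothing in the labels says that each sample came from a separate animal, so p-values measure the spread between these samples.

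UVB makes bulky lesions in DNA, and the damage kinases they activate stabilise the p53 protein, which in skin mostly happens without more Trp53 mRNA. p53 then binds near its target genes and switches on a cyclin-dependent kinase inhibitor that halts the cell cycle, pro-death proteins that open mitochondria, death receptors at the cell surface, repair enzymes, and its own inhibitor Mdm2, which closes a feedback loop. In epidermis these responses produce the sunburn cells that follow a strong UV dose.

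The p53 response element is a pair of 10-base repeats, and it was searched for in RefSeq promoter windows (GRCm38.p6, 250 bases before to 50 after a start site) because it is the sequence that the listed genes are known to share. The windows were matched by symbol for 28 of the 34 genes, with 42 windows, and none was at hand for Tnfrsf10b, Trp53inp1, Rrm2b, Perp, Pmaip1 or Zmat3. A match to the p53 consensus element had both repeats with no spacer, the invariant C and G of each repeat, and at most 3 mismatches over the 20 bases; since the element reads the same on both strands, 1 search covers both. Such a match was found in 7 of the 42 windows, which belong to 6 genes, against 1.38% of all 32851 windows (453). The closest matches, with 1 mismatch each, lay in the windows of Cdkn1a, at its upstream start site, and of Ccng1. The windows of Aen and Sesn1 had 3 mismatches, as did those of Bbc3 (CTGCAAGCCCCGACTTGTCC, chromosome 7, 16309486 to 16309505) and Trp53 (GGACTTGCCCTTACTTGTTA, chromosome 11, 69580284 to 69580303), both on the plus strand. A match is a description of the letters and says nothing about binding in these samples. The windows below are shown because their genes went different ways after UVB. Aen was higher and Sesn1 lower after acute UVB in all 3 strains, and Cdkn1a was higher in NZM and WT. Ccng1 was lower after chronic UVB in iNZM and WT, though not with the skeletal muscle level as a covariate. Capitals mark the match.
Cdkn1a, chr17:29090729-29091028, plus strand: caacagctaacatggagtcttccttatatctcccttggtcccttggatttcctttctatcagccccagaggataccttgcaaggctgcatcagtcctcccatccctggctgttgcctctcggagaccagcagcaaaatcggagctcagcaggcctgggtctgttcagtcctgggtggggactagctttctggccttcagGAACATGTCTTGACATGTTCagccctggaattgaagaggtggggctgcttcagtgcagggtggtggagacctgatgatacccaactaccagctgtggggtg
Ccng1, chr11:40755237-40755536, minus strand: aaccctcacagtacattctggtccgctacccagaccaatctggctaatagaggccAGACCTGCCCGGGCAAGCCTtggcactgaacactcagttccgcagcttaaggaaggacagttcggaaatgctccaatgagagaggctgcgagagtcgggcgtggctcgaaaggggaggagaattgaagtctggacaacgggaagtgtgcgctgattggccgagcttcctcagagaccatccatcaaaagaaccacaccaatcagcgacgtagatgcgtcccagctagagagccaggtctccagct
Aen, chr7:78895808-78896107, plus strand: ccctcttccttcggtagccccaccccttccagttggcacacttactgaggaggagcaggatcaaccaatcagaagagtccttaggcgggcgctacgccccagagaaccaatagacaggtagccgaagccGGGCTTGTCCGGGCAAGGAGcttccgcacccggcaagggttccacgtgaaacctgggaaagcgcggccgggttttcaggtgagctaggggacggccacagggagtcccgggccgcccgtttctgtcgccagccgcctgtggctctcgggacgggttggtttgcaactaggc
Sesn1, chr10:41887189-41887488, plus strand: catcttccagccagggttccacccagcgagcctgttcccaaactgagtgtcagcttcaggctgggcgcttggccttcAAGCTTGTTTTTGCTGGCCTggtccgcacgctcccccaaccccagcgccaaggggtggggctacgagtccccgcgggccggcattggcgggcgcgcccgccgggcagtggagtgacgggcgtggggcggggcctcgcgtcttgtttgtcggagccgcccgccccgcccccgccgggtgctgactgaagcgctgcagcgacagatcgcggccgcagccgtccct

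Libraries held between 18.49 and 37.76 M reads, and the 34 genes together took between 0.376% and 0.595% of them. Per kilobase of merged exon (GENCODE vM21), and averaged over the 13 libraries without UVB, Perp was far above the rest at 38950 normalised reads per kb. Ak1, Phlda3 and Ccng1 followed at between 3239 and 4506, Cdkn1a was at 1209, Trp53 at 354 and Mdm2 at 219. At the lower end were Tnfrsf10b at 24.9, Pidd1 at 14.3 and Gdf15 at 1.0 reads per kb. The counting strand is not given in the sources used here, and Cdkn1a, Bax, Rrm2b, Ei24, Gadd45a and Plk3 share between 84 and 734 exon bases with another annotated gene. Keratins of the labelled tissue were present in every library, with Krt14 between 42144 and 338018 and Krt10 between 1484 and 701879 normalised reads.

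Libraries differed in their levels of hair shaft and skeletal muscle genes. Several calls among the 34 genes changed in fits that took these levels into account. The mean log2 level of 15 hair shaft keratin and keratin-associated genes was above 10 in 9 of the 43 libraries, 3 of iNZM and 3 of NZM after chronic UVB and 2 of iNZM and 1 of NZM after acute UVB, while no other library was above 8.31. The summed normalised count of 6 skeletal muscle genes lay after chronic UVB between 69906 and 772592 in iNZM, 81715 and 588211 in NZM, and 207323 and 255656 in WT. Without UVB it lay between 697817 and 913950 in iNZM, 570814 and 1324440 in NZM, and 707325 and 1785420 in WT. In each group that held libraries of high hair shaft level, those libraries had the lowest counts of the muscle gene Ckm. In bulk skin, fewer cells of a type and less RNA per cell cannot be told apart. Counts of the 34 genes are given with and without the 9 libraries. With the muscle level as a covariate, 25 of 130 calls over all comparisons were lost and 3 turned in sign, and the larger of these changes are given beside the genes. Most muscle markers were themselves lower after chronic UVB in each strain, and in WT the summed counts did not overlap. Chronic differences fitted with this covariate therefore cannot separate the regimen from the muscle level.

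Of the 34 genes, 8 were called higher and 2 lower after acute UVB in all 3 strains. The share of all genes called in all 3 strains is not given, here or for the later comparisons. By limma on log2(normalised count + 1), with Benjamini-Hochberg adjustment over 19170 genes at 0.05, 11 of the 34 genes were higher and 4 lower in iNZM, where 12.8% of all genes tested were called higher and 12.4% lower. In NZM 14 were higher and 4 lower, against 10.6% of all genes higher and 10.7% lower. In WT 14 were higher and 2 lower, against 10.4% and 11.3%. The median log2 difference over the 34 genes was 0.25 in iNZM, 0.27 in NZM and 0.53 in WT, against 0.00, 0.02 and 0 over all genes tested. Mdm2, Bax, Pmaip1, Tnfrsf10b, Aen, Plk2, Psrc1 and Gadd45a were higher in all 3 strains, and Sesn1 and Perp were lower in all 3. Without the 9 libraries of high hair shaft level the counts were 9 higher and 2 lower in iNZM, 16 and 4 in NZM, and 17 and 2 in WT. Over all genes they were then 2041 higher and 2084 lower in iNZM, 2726 and 2711 in NZM, and 2669 and 2869 in WT, against 2451 and 2382, 2039 and 2058, and 1996 and 2173 with all libraries. With only the compared groups fitted, the calls of Aen (limma adjusted p = 0.0651) and Psrc1 (0.123) in iNZM and of Sesn1 (0.0536) and Perp (0.17) in WT were lost, as were those of Mdm4 and Rrm2b in iNZM and Pidd1 in NZM.

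**Figure D1:**
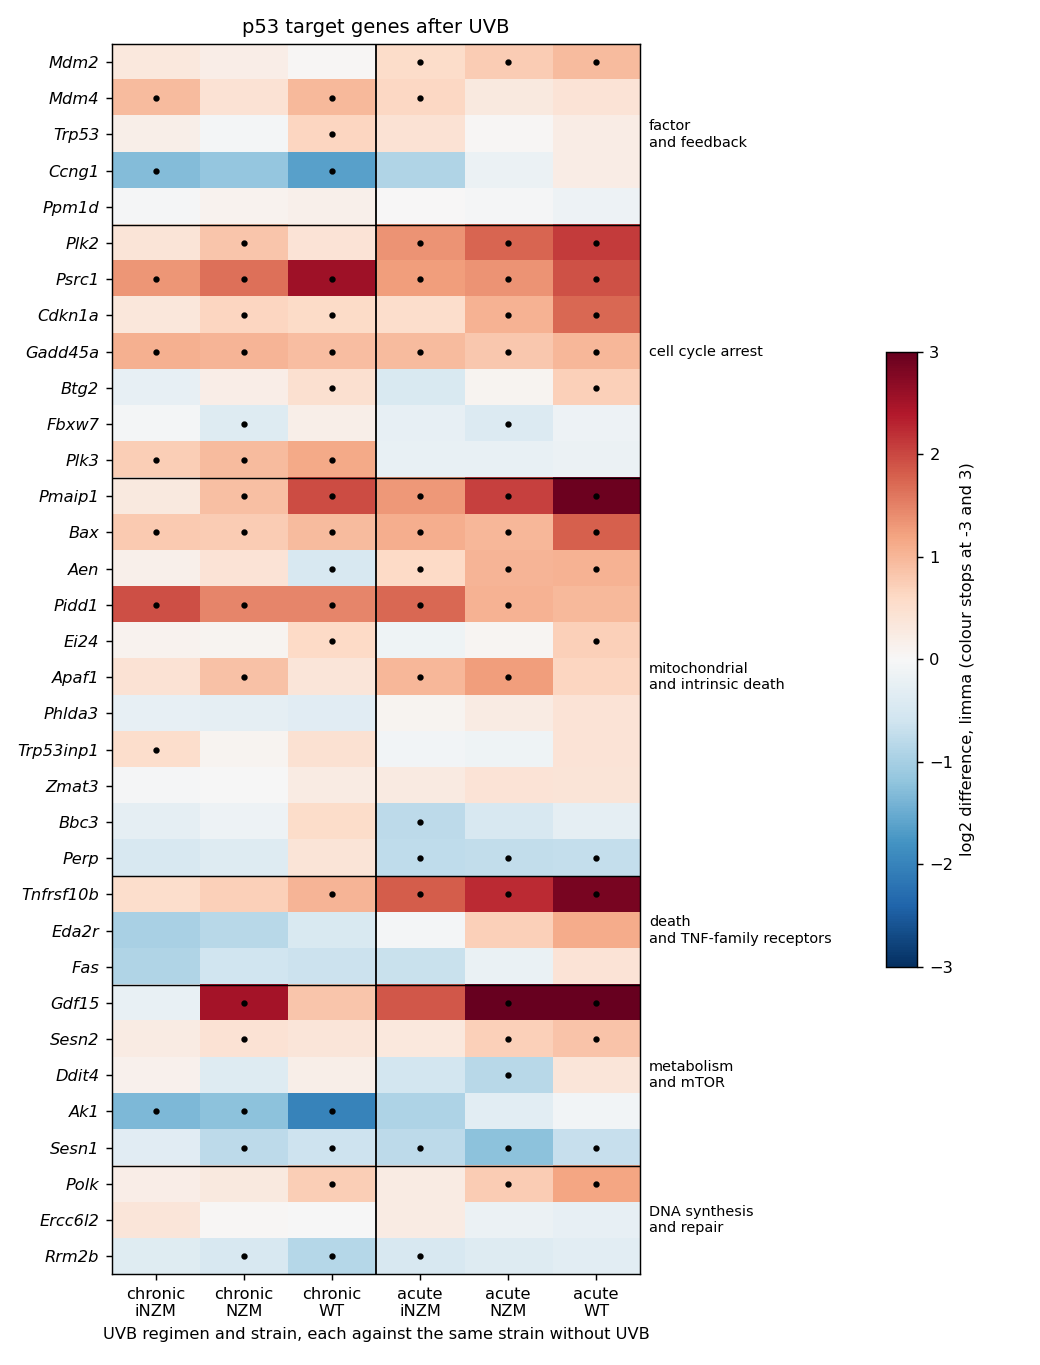
Log2 difference (limma, colour) of each of the 34 genes after chronic UVB (left 3 columns) and acute UVB (right 3 columns) against the same strain without UVB, with rows grouped by role and dots where the adjusted p was below 0.05. Tnfrsf10b, Pmaip1, Plk2 and Bax are dotted in all 3 acute columns, Plk3 only in the chronic ones, and Ak1 and Ccng1 are blue on the chronic side.

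Trp53 mRNA itself was not called after acute UVB in any strain. It was at 2708, 1500, 2252, 1723 and 1497 normalised reads in acute iNZM skin, against 1367, 1468, 1346 and 1427 in iNZM skin without UVB. All 5 acute libraries lay above the 4 without UVB, but the largest values, 2708 and 2252, were from libraries of high hair shaft level. The log2 difference was 0.43 ± 0.21 (SE; limma adjusted p = 0.138) in iNZM, 0.04 ± 0.20 (adjusted p = 0.92) in NZM and 0.23 ± 0.21 (adjusted p = 0.499) in WT. In NZM, acute library 5 stood alone at 2415 normalised reads, against 1449 to 1653 in the other acute NZM libraries.

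Mdm2, the ubiquitin ligase that destroys p53 and is its classic feedback target, rose moderately. It was at 1372, 1524, 1411, 1644 and 1938 normalised reads in acute iNZM skin, against 1045, 1069, 1039 and 1092 without UVB. In NZM it was at 1843, 2342, 1802, 1810 and 1122 after acute UVB, against 1263, 857, 1069, 975 and 1027 without UVB. In WT it was at 3281, 2172, 1988, 2416 and 2496 after acute UVB, against 1443, 1375, 1059 and 1164 without UVB. The groups did not overlap in iNZM or WT, and in NZM acute library 5, at 1122, lay within the range without UVB. The log2 difference was 0.56 ± 0.14 in iNZM (limma adjusted p = 0.0031), 0.75 ± 0.13 in NZM (adjusted p = 6.79e-05) and 0.96 ± 0.14 in WT (adjusted p = 2.94e-06). Mdm4, the Mdm2 relative that blocks p53's activation domain, was called in iNZM (0.62 ± 0.23, limma adjusted p = 0.0442), a call lost when any of 6 single libraries was left out. Ppm1d, the phosphatase that resets damage signalling, had log2 differences of 0.01 in iNZM, -0.03 in NZM and -0.16 in WT, none of them called.

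Tnfrsf10b, the TRAIL death receptor of the mouse, showed among the widest changes. It was at 271, 584, 280, 645 and 867 normalised reads in acute iNZM skin, against 138, 151, 110 and 142 in iNZM skin without UVB. In acute NZM skin it was at 704, 1087, 715, 636 and 354, against 118, 136, 154, 137 and 156 without UVB. In acute WT skin it was at 1004, 841, 825, 857 and 1083, against 83.6, 121, 149 and 168 without UVB. No acute library overlapped the libraries without UVB in any strain, and the lowest acute values, 271, 280 and 354, came from libraries of high hair shaft level. The log2 difference was 1.82 ± 0.28 (3.54-fold, limma adjusted p = 9.31e-06) in iNZM, 2.23 ± 0.26 (4.69-fold, adjusted p = 1.34e-07) in NZM and 2.85 ± 0.28 (7.22-fold, adjusted p = 2.03e-09) in WT. The other receptors did not pass the test after acute UVB. Fas, the Fas ligand receptor, had log2 differences of -0.66 in iNZM, -0.19 in NZM and 0.41 in WT. Eda2r, a receptor for an ectodysplasin isoform, had differences of -0.06 in iNZM, 0.71 in NZM and 1.11 in WT.

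Among the mitochondrial death genes, Pmaip1 and Bax rose in every strain. Pmaip1 encodes Noxa, a small protein that disarms the anti-apoptotic Mcl1. It was at 382, 648, 348, 910 and 958 normalised reads in acute iNZM skin, against 251, 220, 215 and 281 without UVB. Acute NZM libraries had 907, 1292, 958, 787 and 501, against 130, 207, 198, 273 and 251 without UVB. Acute WT libraries had 906, 964, 888, 882 and 1314, against 90.5, 125, 149 and 157 without UVB. Every acute library lay above every library without UVB of its strain. Pmaip1 differed by 1.31 ± 0.26 on the log2 scale in iNZM (limma adjusted p = 0.000308), 2.05 ± 0.25 in NZM (adjusted p = 2.07e-07) and 2.93 ± 0.26 in WT (adjusted p = 5.82e-10).

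Bax, which forms pores in the outer mitochondrial membrane, was at 554, 579, 467, 587 and 552 normalised reads in acute iNZM skin, against 246, 320, 200 and 276 without UVB. In NZM it was at 636, 630, 420, 615 and 511 after acute UVB, against 285, 229, 262, 312 and 305. In WT it was at 1208, 791, 750, 719 and 973 after acute UVB, against 269, 191, 356 and 212. The acute values were above those without UVB in all 3 strains, with no overlap. Bax differed by 1.09 ± 0.17 in iNZM (limma adjusted p = 2.06e-05), 1.00 ± 0.16 in NZM (adjusted p = 2.79e-05) and 1.80 ± 0.17 in WT (adjusted p = 2.03e-09). Other members of the death group were less uniform. Apaf1, the scaffold of the apoptosome, rose by 0.99 ± 0.29 in iNZM (adjusted p = 0.0103) and 1.25 ± 0.27 in NZM (adjusted p = 0.000852), while its difference in WT was 0.63 ± 0.29 (adjusted p = 0.117), all by limma. Pidd1, scaffold of a caspase-activating complex, rose by 1.72 ± 0.38 in iNZM (limma adjusted p = 0.00102) and 1.04 ± 0.36 in NZM (adjusted p = 0.0335), and the NZM call was lost without any of 6 single libraries. Its difference in WT was 0.98 ± 0.38 (limma adjusted p = 0.0625).

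Not every pro-death target went up. Bbc3, which encodes Puma and is regarded as a main p53 death effector, was lower after acute UVB in iNZM, with a log2 difference of -0.79 ± 0.22 (limma adjusted p = 0.00851), with all 5 acute libraries below the 4 without UVB. Its differences in NZM and WT were -0.47 ± 0.21 and -0.26 ± 0.22 and were not called. Perp, a tetraspan protein of desmosomes that epidermis needs for adhesion, was lower in all 3 strains. It was at 41133, 50508, 36596, 67283 and 43934 normalised reads in acute iNZM skin, against 78010, 66360, 85578 and 91378 without UVB. In NZM, acute skin held 42559, 48654, 56345, 43685 and 53560, against 69097, 84306, 89494, 76551 and 87769 without UVB. In WT, acute skin held 32537, 32122, 48032, 24851 and 66965, against 80257, 81829, 49836 and 47935 without UVB. The groups were apart in NZM and overlapped in iNZM and WT. Perp differed by -0.77 ± 0.21 in iNZM (limma adjusted p = 0.00763), -0.74 ± 0.20 in NZM (adjusted p = 0.00752) and -0.71 ± 0.21 in WT (adjusted p = 0.0135), the last lost without acute library 52 or library 41 or 43 without UVB. Perp is expressed by keratinocytes. Of 10 suprabasal keratinocyte markers, 8 were called lower in acute iNZM skin, 5 in NZM and 9 in WT, and none higher. Their summed count was between 27932 and 229921 in acute iNZM, 126809 and 359382 in acute NZM and 59628 and 158342 in acute WT skin, against 430370 to 874669, 515439 to 1052920 and 369281 to 708146 without UVB in the same strains. Of 9 basal keratinocyte markers, 5 were called lower in acute iNZM skin, 6 in NZM and 2 in WT, with 1 higher in WT. The part of either set of markers in the Perp result was not tested.

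Aen, a nuclear exonuclease that p53 induces during apoptosis, was at 1043, 1478, 1033, 1422 and 1860 normalised reads in acute iNZM skin, against 922, 705, 904 and 1012 without UVB. In acute NZM skin it was at 1495, 1853, 1756, 1492 and 1563, against 969, 830, 897, 615 and 766. In acute WT skin it was at 3698, 2804, 2632, 2812 and 2575, against 1784, 1476, 1347 and 1106. The acute values were higher without overlap in each strain. Aen differed by 0.60 ± 0.17 in iNZM (limma adjusted p = 0.00978), 1.01 ± 0.16 in NZM (adjusted p = 2.27e-05) and 1.03 ± 0.17 in WT (adjusted p = 2.63e-05), and the iNZM call was lost without iNZM library 38 (adjusted p = 0.0519). Zmat3, an RNA-binding zinc finger protein, and Phlda3, an inhibitor of Akt at the membrane, had acute log2 differences between 0.08 and 0.41 in the 3 strains, none of them called. Ei24 rose in WT (0.70 ± 0.17, limma adjusted p = 0.00194), with differences of -0.14 in iNZM and 0.05 in NZM, and Trp53inp1 was called in no strain, with differences between -0.13 and 0.41.

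**Figure D2:**
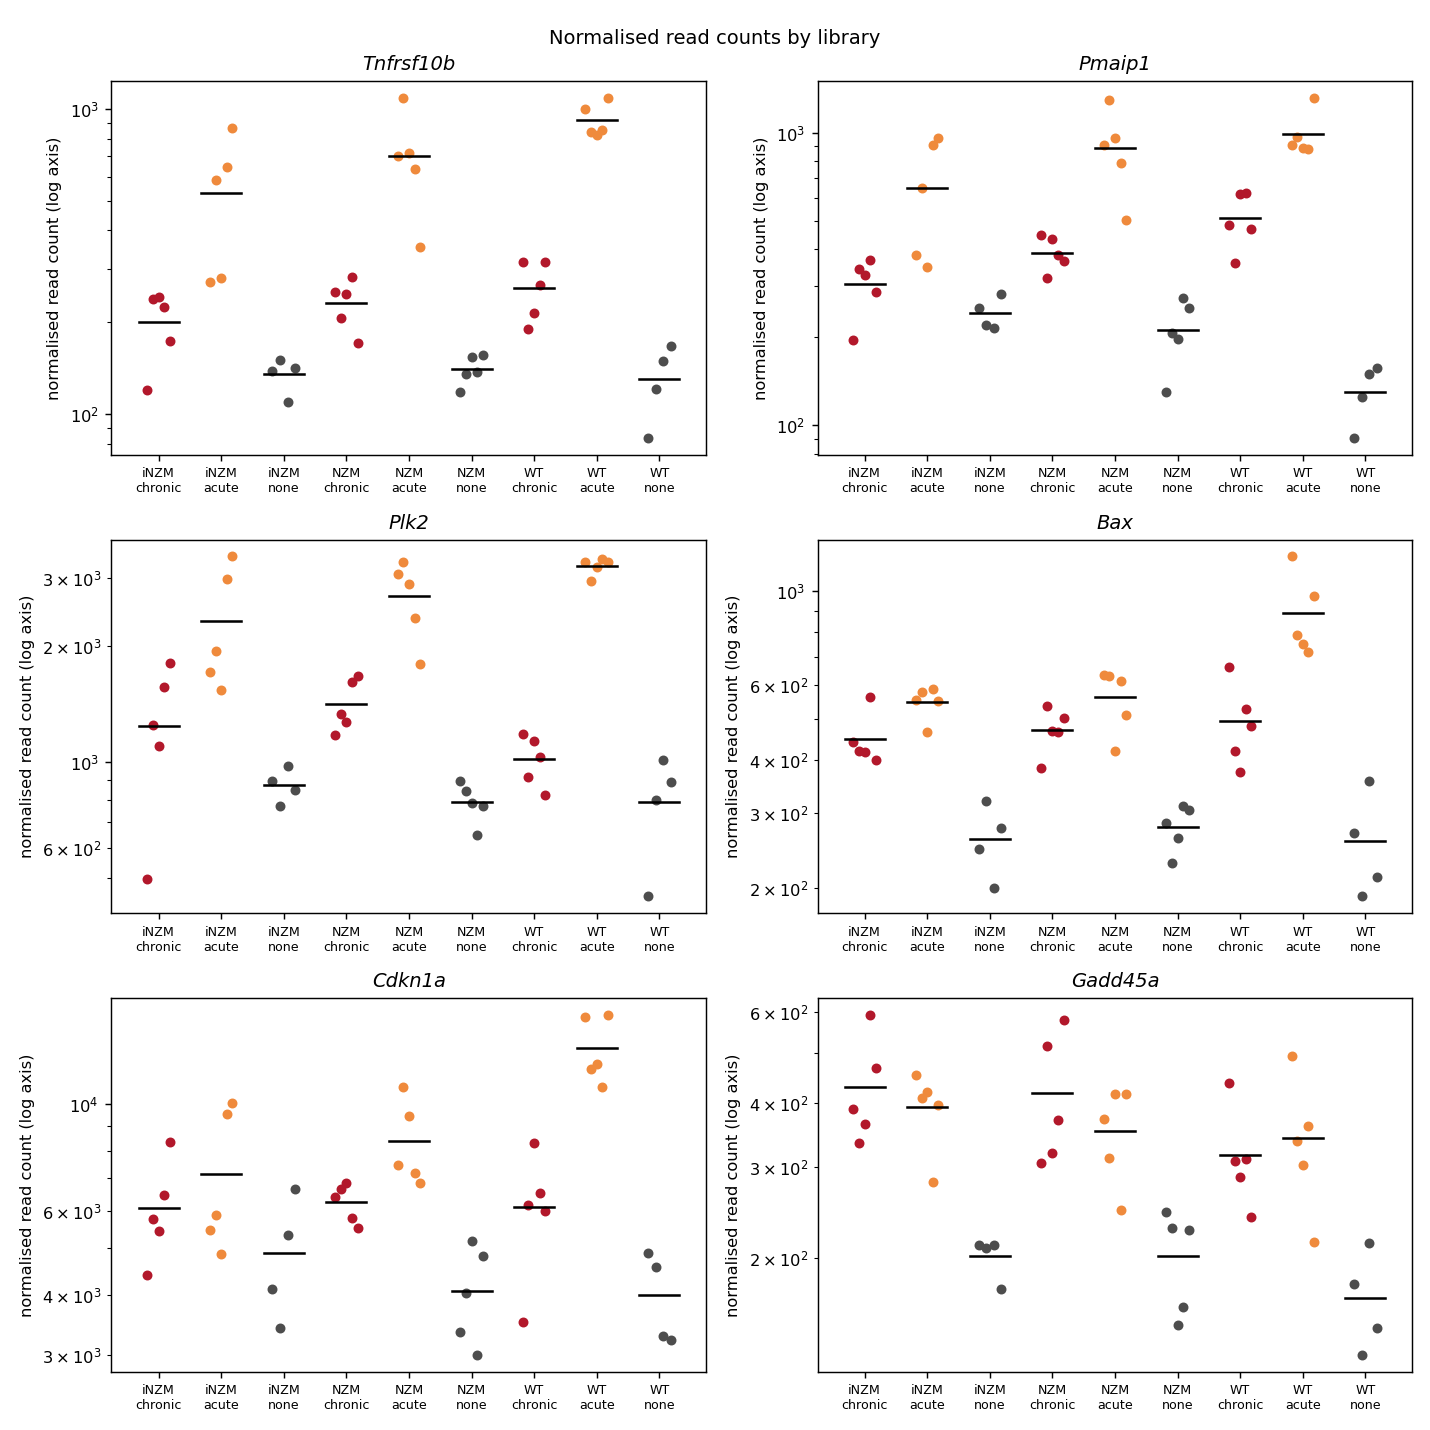
Normalised read count (log axis) of 6 genes in each library, by strain and regimen, with 1 point per library and a line at the mean of each group. The means of Tnfrsf10b, Pmaip1 and Plk2 are highest after acute UVB in each strain, while chronic and acute Gadd45a values overlap.

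Among the cell cycle genes, Plk2, a polo-like kinase of the G1 phase, rose in every strain. It was at 1710, 1941, 1536, 2996 and 3417 normalised reads in acute iNZM skin, against 892, 772, 975 and 846 without UVB. The acute NZM libraries held 3085, 3315, 2898, 2372 and 1796, against 894, 843, 786, 648 and 769. The acute WT libraries held 3306, 2945, 3212, 3376 and 3298, against 449, 799, 1011 and 889. The acute libraries stood clear of the others in each strain. The log2 difference was 1.34 ± 0.25 in iNZM (limma adjusted p = 0.000141), 1.75 ± 0.24 in NZM (adjusted p = 1.59e-06) and 2.10 ± 0.25 in WT (adjusted p = 9.18e-08).

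Cdkn1a encodes p21, the inhibitor through which p53 stops the cell cycle. It was at 5471, 5885, 4860, 9548 and 10073 normalised reads in acute iNZM skin, against 4115, 3407, 5336 and 6664 without UVB. In acute NZM skin it was at 7468, 10886, 9439, 7192 and 6853, against 3347, 4038, 5185, 2998 and 4811. In acute WT skin it was at 15195, 11830, 12143, 10896 and 15375, against 4898, 4569, 3273 and 3216. The groups were apart in NZM and WT and overlapped in iNZM, where only acute libraries 9 and 10 lay above all libraries without UVB. Cdkn1a rose by 1.05 ± 0.22 in NZM (limma adjusted p = 0.000482) and 1.73 ± 0.23 in WT (adjusted p = 5.3e-07). In iNZM its difference was 0.54 ± 0.23 (limma adjusted p = 0.0801), and 0.81 (adjusted p = 0.0201) without the libraries of high hair shaft level; leaving out iNZM library 49 or 40 alone also brought it past the threshold (adjusted p = 0.0438 and 0.0391).

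Gadd45a, a growth arrest and damage sensor, was at 452, 408, 420, 280 and 397 normalised reads in acute iNZM skin, against 211, 209, 211 and 174 without UVB. In NZM it was at 372, 313, 417, 247 and 416 after acute UVB, against 245, 228, 148, 160 and 226. In WT it was at 493.1, 337, 303, 360 and 215 after acute UVB, against 178, 130, 213 and 146. Every acute library was above every library without UVB of its strain; in NZM (247 against 245) and in WT (215 against 213) the closest pair nearly touched. The log2 differences were 0.94 ± 0.22, 0.81 ± 0.21 and 1.01 ± 0.22 in iNZM, NZM and WT (limma adjusted p = 0.00178, 0.00457 and 0.000821).

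Psrc1, a spindle protein that binds microtubules, rose by 1.26 ± 0.37 in iNZM, 1.34 ± 0.35 in NZM and 1.91 ± 0.37 in WT (limma adjusted p = 0.0102, 0.00448 and 0.000156). In acute iNZM skin it was at 564, 205, 623, 147 and 123 normalised reads, against 144, 111, 113 and 80.3 without UVB. The values of 564 and 623 came from the acute iNZM libraries 6 and 49, both of high hair shaft level, and the limma call was lost without either of them (adjusted p = 0.0517 and 0.0552). Btg2, an anti-proliferative gene, rose in acute WT skin (0.71 ± 0.19, limma adjusted p = 0.00608) and had differences of -0.45 in iNZM and 0.07 in NZM. Fbxw7, the substrate receptor of a ubiquitin ligase for cyclin E and Myc, was lower after acute UVB in NZM (-0.42 ± 0.11, limma adjusted p = 0.00425). Plk3, a stress-activated polo-like kinase, had acute differences between -0.22 and -0.17, none called.

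In the metabolic group, the sestrins parted. Sesn1 and Sesn2 both restrain mTOR complex signalling. Sesn1 was at 1366, 1095, 1257, 1193 and 991 normalised reads in acute iNZM skin, against 1944, 1981, 2390 and 1875 without UVB. Acute NZM libraries had 1055, 968, 798, 1617 and 1101, against 3015, 2509, 1643, 3330 and 2498. Acute WT libraries had 1143, 1279, 1465, 1089 and 1622, against 2811, 1481, 1681 and 2771. It was lower without overlap in iNZM and NZM, and in WT 1 acute library reached the range without UVB. Sesn1 differed by -0.80 ± 0.19 in iNZM (limma adjusted p = 0.00225), -1.23 ± 0.18 in NZM (adjusted p = 5.92e-06) and -0.68 ± 0.19 in WT (adjusted p = 0.00796), the last lost without WT library 41 or 45. Sesn2 by contrast rose by 0.70 ± 0.16 in NZM (limma adjusted p = 0.00155) and 0.85 ± 0.17 in WT (adjusted p = 0.000284), with a difference of 0.31 ± 0.17 in iNZM (adjusted p = 0.179). Ddit4, another mTOR inhibitor, was lower in NZM (-0.84 ± 0.26, limma adjusted p = 0.0163), a call lost without acute library 1 or 3.

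Gdf15, a secreted stress cytokine, was close to absent without UVB. It was at 3.85, 12.8, 5.05, 15.4 and 28.6 normalised reads in acute iNZM skin, against 4.36, 0, 3.3 and 3.13 without UVB. In NZM, acute skin held 23.6, 67.3, 36.9, 3.65 and 10.9, against 2.33, 3.01, 0, 0 and 0. In WT, acute skin held 186, 39.9, 44.6, 42.8 and 21.2, against 0, 2.97, 3.66 and 1.59. The groups did not overlap in NZM and WT, where the test called it higher (limma adjusted p = 0.000941 and 0.000197). In iNZM acute library 6 lay within the range without UVB (limma adjusted p = 0.0947). At such counts the fitted fold depends on the added 1 and is not given. Among the repair genes, Polk, a polymerase that copies past bulky lesions, rose by 0.75 ± 0.25 in NZM (limma adjusted p = 0.0294) and 1.18 ± 0.27 in WT (adjusted p = 0.00123); the NZM call was lost without any of 7 single libraries. Rrm2b, the p53-inducible ribonucleotide reductase subunit, was lower in iNZM (-0.47 ± 0.18, limma adjusted p = 0.0485), lost without any of 7 single libraries.

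Neutrophil and monocyte markers rose in the same skin, 7 of 13 in acute iNZM, 12 in acute NZM and 9 in acute WT. Their summed count was between 1514 and 46751 in acute iNZM, 7870 and 31981 in acute NZM and 5740 and 32884 in acute WT skin, against 3686 to 9701, 1738 to 2634 and 4421 to 31483 without UVB in the same strains. How far these cells contribute to the higher members was not tested.

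After chronic UVB a smaller set was called in all 3 strains; these comparisons use the same skin without UVB as the acute ones. In iNZM 7 of the 34 genes were higher and 2 lower, against 13.1% of all genes tested higher and 15.7% lower. In NZM 11 were higher and 4 lower, against 9.2% and 9.78%. In WT 13 were higher and 5 lower, against 18.4% and 16.8%. Bax, Psrc1, Gadd45a, Pidd1 and Plk3 were higher in all 3 strains, and Ak1 was lower in all 3. Without the libraries of high hair shaft level, which left 2 chronic libraries in iNZM and 2 in NZM, the counts were 7 higher and 1 lower in iNZM, 3 and 0 in NZM, and 14 and 7 in WT. The counts over all genes were then 1906 higher and 2056 lower in iNZM, 494 and 512 in NZM, and 4317 and 4070 in WT, against 2520 and 3013, 1763 and 1875, and 3532 and 3229 with all libraries. The 3 genes still called in NZM were Pmaip1, Plk3 and Psrc1.

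Bax was at 441, 420, 418, 563 and 400 normalised reads in chronic iNZM skin, 383, 537, 469, 465 and 504 in chronic NZM skin and 665, 421, 376, 527 and 481 in chronic WT skin. All of these were above the values of the same strain without UVB. The log2 differences were 0.79 ± 0.17, 0.76 ± 0.16 and 0.95 ± 0.17 in iNZM, NZM and WT (limma adjusted p = 0.00151, 0.00176 and 7.23e-05). Gadd45a was likewise higher without overlap, by 1.06 ± 0.22, 1.03 ± 0.21 and 0.92 ± 0.22 in iNZM, NZM and WT (limma adjusted p = 0.000927, 0.000856 and 0.00157).

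Psrc1 reached its highest values in chronic WT skin, at 1199, 612, 659, 882 and 850 normalised reads, against 114, 130, 179 and 147 without UVB. In chronic iNZM skin it was at 224, 297, 178, 487 and 272, and in chronic NZM skin at 185, 223, 186, 430 and 408. All were above the same strain without UVB, with log2 differences of 1.32 ± 0.37 in iNZM (limma adjusted p = 0.0087), 1.65 ± 0.35 in NZM (adjusted p = 0.00124) and 2.53 ± 0.37 in WT (adjusted p = 2.36e-06). Cell cycle genes that p53 represses through p21 were also higher there, 17 of 20 in chronic WT skin, 6 in NZM and 10 in iNZM, with none lower. After acute UVB 9 of these 20 were higher in iNZM, 2 in NZM and 1 in WT, and none was lower. Of all genes, 18.4% were higher in chronic WT skin, 9.2% in NZM and 13.1% in iNZM. The acute shares were 12.8% in iNZM, 10.6% in NZM and 10.4% in WT, which the acute NZM and WT counts did not exceed. The summed count of the 20 genes was between 16839 and 35720 in chronic WT skin, against 3996 to 13991 in WT skin without UVB. The ranges overlapped in NZM (16386 to 37557 against 9224 to 18324) and in iNZM (11188 to 40239 against 8609 to 13473). Whether Psrc1 moved with proliferating cells was not tested. With the muscle covariate the iNZM difference was 0.59 (limma adjusted p = 0.214).

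Pidd1 was at 126, 245, 162, 269 and 161 normalised reads in chronic iNZM skin, against 46.8, 79.7, 47 and 30.2 without UVB. In chronic NZM skin it was at 167, 163, 144, 245 and 187, against 60.7, 47.2, 31.2, 125 and 93.1. In chronic WT skin it was at 286, 129, 108, 250 and 195, against 44.1, 49.5, 117 and 69.9. Only WT overlapped, through a single chronic library at 108. Pidd1 differed by 1.92 ± 0.38 in iNZM, 1.47 ± 0.36 in NZM and 1.46 ± 0.38 in WT (limma adjusted p = 0.000575, 0.00483 and 0.00309). With the muscle covariate the WT difference was 0.92 (limma adjusted p = 0.0802).

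Plk3, not called after acute UVB, was at 1356, 1669, 1454, 1533 and 4276 normalised reads in chronic iNZM skin, against 1025, 865, 1253 and 1396 without UVB. In chronic NZM skin it was at 1649, 1868, 2038, 2012 and 2244, against 682, 1039, 868, 984 and 1714. In chronic WT skin it was at 1404, 1785, 2089, 1939 and 1396, against 743, 986, 777 and 631. Groups were apart in WT, and 1 library crossed in each of the other strains. Plk3 rose by 0.73 ± 0.25 in iNZM (limma adjusted p = 0.0278), 0.95 ± 0.24 in NZM (adjusted p = 0.00514) and 1.13 ± 0.25 in WT (adjusted p = 0.000628). The iNZM call was lost without chronic library 25, which held 4276 reads (limma adjusted p = 0.136), or without library 37 or 38. With the muscle covariate Plk3 differed by 0.29 in iNZM and 0.60 in NZM (limma adjusted p = 0.41 and 0.0611), neither called, and with only the compared groups fitted the iNZM call was also lost (adjusted p = 0.15).

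Pmaip1, Tnfrsf10b, Plk2, Mdm2 and Aen were each called higher in fewer strains than after acute UVB; the difference between the regimens is tested below. Pmaip1 was at 485, 359, 615, 623 and 470 normalised reads in chronic WT skin and at 447, 318, 433, 382 and 363 in chronic NZM skin, above all libraries without UVB in both strains. It rose by 0.91 ± 0.25 in NZM (limma adjusted p = 0.0104) and 1.96 ± 0.26 in WT (adjusted p = 5.31e-07), and its difference in iNZM was 0.30 ± 0.26 (adjusted p = 0.391). Tnfrsf10b was at 315, 190, 215, 265 and 315 in chronic WT skin and rose there by 1.01 ± 0.28 (limma adjusted p = 0.00468). Its differences in iNZM and NZM were 0.52 ± 0.28 (limma adjusted p = 0.149) and 0.71 ± 0.26 (adjusted p = 0.0517). Plk2 rose in NZM (0.84 ± 0.24, limma adjusted p = 0.0138; 0.0858 with the muscle covariate) and had differences of 0.39 in iNZM and 0.42 in WT. Mdm2 was not called, with differences of 0.31 ± 0.14, 0.21 ± 0.13 and 0.04 ± 0.14 in iNZM, NZM and WT (limma adjusted p = 0.0945, 0.278 and 0.847). Mdm4 rose by 0.96 ± 0.23 in iNZM (limma adjusted p = 0.00296) and 0.97 ± 0.23 in WT (adjusted p = 0.0013). Cdkn1a rose by 0.64 ± 0.22 in NZM (limma adjusted p = 0.0337) and 0.58 ± 0.23 in WT (adjusted p = 0.0435), and these calls were lost without any of 7 single libraries in NZM and any of 6 in WT.

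Trp53 mRNA was called higher in chronic WT skin, at 2159, 1775, 1786, 1871 and 1646 normalised reads, against 989, 1158, 1660 and 1032 without UVB. A single library crossed between the groups. The log2 difference was 0.64 ± 0.21 (limma adjusted p = 0.0189), and the call was lost without WT library 41 or 45 (adjusted p = 0.0688 and 0.0641). With the skeletal muscle level as a covariate the difference was -0.08 (limma adjusted p = 0.648). In iNZM and NZM the differences were 0.19 ± 0.21 and -0.05 ± 0.20, and with that covariate they were -0.42 and -0.55 and past the threshold (limma adjusted p = 0.00987 and 0.000503). The muscle level was itself lower after chronic UVB, so these fits cannot separate it from the regimen. No lower Trp53 level is concluded from them.

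Ak1, an adenylate kinase abundant in muscle, and Ccng1, the p53-induced cyclin G1, had the most negative differences of the list after chronic UVB in each strain. Ak1 was at 10551, 2863, 9520, 1860 and 2348 normalised reads in chronic iNZM skin, against 11269, 9481, 10914 and 10971 without UVB. In the same chronic libraries the muscle creatine kinase Ckm was at 46093, 10271, 34494, 4817 and 3835, so both genes were high in libraries 57 and 23 and low in the other 3. Ccng1 was high and low in the same libraries, at 10188, 4169, 9224, 1800 and 1791, against 10276, 8955, 11452 and 10636 without UVB. The hair shaft keratin Krt85 ran the other way in those chronic libraries, at 437, 5110, 0, 24348 and 25157. Muscle and hair levels thus split these libraries the same way, and their parts were not tested apart. In chronic WT skin Ak1 was at 3702, 3403, 2819, 3090 and 4727 and Ccng1 at 4257, 4305, 4783, 4593 and 4749, against 21010, 15144, 10135 and 12302 for Ak1 and 21727, 15441, 8991 and 12988 for Ccng1 without UVB. Ak1 differed by -1.35 ± 0.43 in iNZM, -1.23 ± 0.40 in NZM and -2.01 ± 0.43 in WT (limma adjusted p = 0.0189, 0.0312 and 0.000433). Ccng1 differed by -1.30 ± 0.46 in iNZM, -1.15 ± 0.43 in NZM and -1.63 ± 0.46 in WT (limma adjusted p = 0.0312, 0.0553 and 0.00542). Of the 6 muscle markers, 5 were lower after chronic UVB in each strain. With their level as a covariate, Ak1 differed by -0.02 in iNZM, -0.13 in NZM and -0.45 in WT (limma adjusted p = 0.945, 0.554 and 0.0188), and Ccng1 by 0.10, 0.00 and 0.02, none of these called. Without the covariate, the Ak1 call in iNZM was lost without chronic library 24 or 25, the Ccng1 call in iNZM without any of 6 single libraries, and the Ak1 call in NZM without any of 5.

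**Figure D3:**
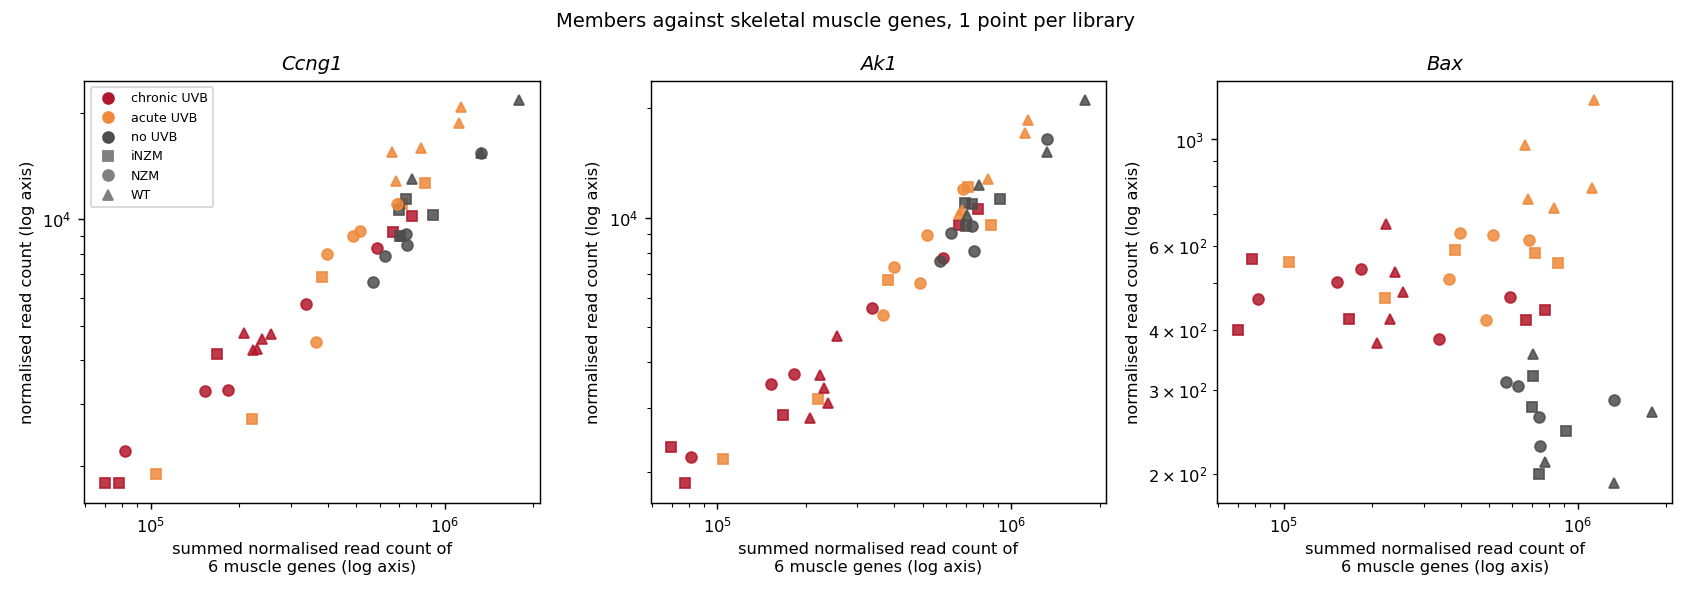
Normalised read counts of Ccng1, Ak1 and Bax (log axis) against the summed normalised count of 6 skeletal muscle genes (log axis), with 1 point per library, colour for the regimen and shape for the strain. Ccng1 and Ak1 run along the muscle level across all regimens, while chronic and acute Bax values lie above those without UVB. No library without UVB has a muscle level below 570814, so Bax cannot be compared with skin without UVB at lower muscle levels.

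Other lower calls after chronic UVB were Rrm2b in NZM (-0.48 ± 0.17, limma adjusted p = 0.0414) and WT (-0.85 ± 0.18, adjusted p = 0.00037), Sesn1 in NZM (-0.78 ± 0.18, adjusted p = 0.00317) and WT (-0.61 ± 0.19, adjusted p = 0.0125), and Fbxw7 in NZM (-0.38 ± 0.11, adjusted p = 0.0148). Single libraries decided the Rrm2b call in NZM (any of 6), the Sesn1 call in WT (41 or 45) and the Fbxw7 call in NZM (chronic library 56). Further higher calls were Apaf1 (0.87 ± 0.27, limma adjusted p = 0.0233), Gdf15 (adjusted p = 0.025) and Sesn2 (0.44 ± 0.16, adjusted p = 0.0496) in NZM, and Trp53inp1, a p53 cofactor in autophagy and death, in iNZM (0.53 ± 0.20, adjusted p = 0.04). In WT they were Ei24, a protein of the endoplasmic reticulum (0.60 ± 0.17, limma adjusted p = 0.00552), Polk (0.73 ± 0.27, adjusted p = 0.033) and Btg2 (0.48 ± 0.19, adjusted p = 0.0464). All of these except Ei24 were lost on leaving out any of 4 to 8 single libraries. Perp, lower after acute UVB, was not called after chronic UVB, with differences of -0.47 in iNZM, -0.39 in NZM and 0.39 in WT. Aen in WT was the 1 gene of the 34 called in opposite directions in a pair of these comparisons, higher after acute and lower after chronic UVB (-0.47 ± 0.17, limma adjusted p = 0.0314), although that chronic call was lost without any of 5 single libraries. Fas, Phlda3, Zmat3, Eda2r, Ppm1d and Ercc6l2 were called in none of the 6 comparisons with skin without UVB.

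Set directly against acute UVB, chronic UVB gave lower levels of 3 genes in all 3 strains, Tnfrsf10b, Pmaip1 and Plk2, and a higher level of Plk3. In iNZM 2 of the 34 genes were higher and 3 lower after chronic than after acute UVB, against 3.81% of all genes higher and 4.45% lower. In NZM 1 was higher and 7 lower, against 3.79% and 3.76%. In WT 5 were higher and 15 lower, against 19.6% and 17.7%. Without the libraries of high hair shaft level the counts were 6 higher and 5 lower in iNZM, 1 and 5 in NZM, and 8 and 16 in WT. All genes then had 2092 higher and 2298 lower in iNZM, 1041 and 1038 in NZM, and 4491 and 4189 in WT, against 731 and 853, 726 and 721, and 3762 and 3391 with all libraries. With only the compared groups fitted, the iNZM calls were lost, with limma adjusted p = 0.175 for Tnfrsf10b, 0.247 for Pmaip1, 0.319 for Plk2 and 0.277 for Plk3. Tnfrsf10b differed by -1.30 ± 0.26 in iNZM, -1.52 ± 0.26 in NZM and -1.84 ± 0.26 in WT (limma adjusted p = 0.00148, 0.000291 and 8.65e-07), with every chronic library below every acute library of its strain. Pmaip1 was at 0.498 of its acute level in iNZM, 0.455 in NZM and 0.512 in WT (limma adjusted p = 0.00827, 0.00314 and 0.00214), apart in NZM and WT and overlapping through 1 library in iNZM. Plk2 differed by -0.95 ± 0.24, -0.91 ± 0.24 and -1.68 ± 0.24 (limma adjusted p = 0.00934, 0.0132 and 7.96e-07). In iNZM the Plk2 call was lost without acute library 10 or chronic library 57 and the Pmaip1 call without acute library 10 (limma adjusted p = 0.0508). Plk3 differed by 0.94 ± 0.24, 1.17 ± 0.24 and 1.30 ± 0.24 (limma adjusted p = 0.0098, 0.00159 and 4.3e-05), with all chronic libraries above all acute ones in each strain.

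WT had the most calls between the regimens, of the 34 and over all genes, where 19.6% were higher and 17.7% lower. Aen was at 993, 887, 1165, 1169 and 885 normalised reads in chronic WT skin, against 3698, 2804, 2632, 2812 and 2575 in acute WT skin, a difference of -1.51 ± 0.16 (limma adjusted p = 5.69e-09). Cdkn1a (-1.14 ± 0.22, adjusted p = 7.66e-05), Mdm2 (-0.92 ± 0.13, adjusted p = 1.15e-06) and Bax (-0.85 ± 0.16, adjusted p = 0.000118) were also lower in chronic than in acute WT skin by limma, each with no overlap between the groups. Perp went the other way in WT, higher by 1.10 ± 0.20 after chronic UVB (limma adjusted p = 5.22e-05), as did Bbc3 (0.81 ± 0.21, adjusted p = 0.00251). All 10 suprabasal keratinocyte markers were higher in chronic than in acute WT skin, with summed counts of 532872 to 2073700 against 59628 to 158342, and their part in the Perp and Bbc3 values was not tested. Gadd45a and Psrc1 did not differ by the test between the regimens in any strain, with log2 differences between -0.09 and 0.62. Phlda3 was lower after chronic than acute UVB in NZM (-0.52 ± 0.16, limma adjusted p = 0.0378, lost without any of 7 single libraries) and WT (-0.76 ± 0.16, adjusted p = 0.000341). Eda2r was also lower in NZM (-1.55 ± 0.48, limma adjusted p = 0.0385, lost without any of 7) and WT (-1.55 ± 0.48, adjusted p = 0.0099), and Fas in WT (-1.06 ± 0.34, adjusted p = 0.0121), and neither receptor was called against skin without UVB. With the muscle covariate Eda2r differed by -0.67 in NZM and -0.09 in WT, Fas by -0.10 in WT and Phlda3 by -0.30 in NZM (limma adjusted p = 0.12, 0.848, 0.786 and 0.132), none of these called.

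**Figure D4:**
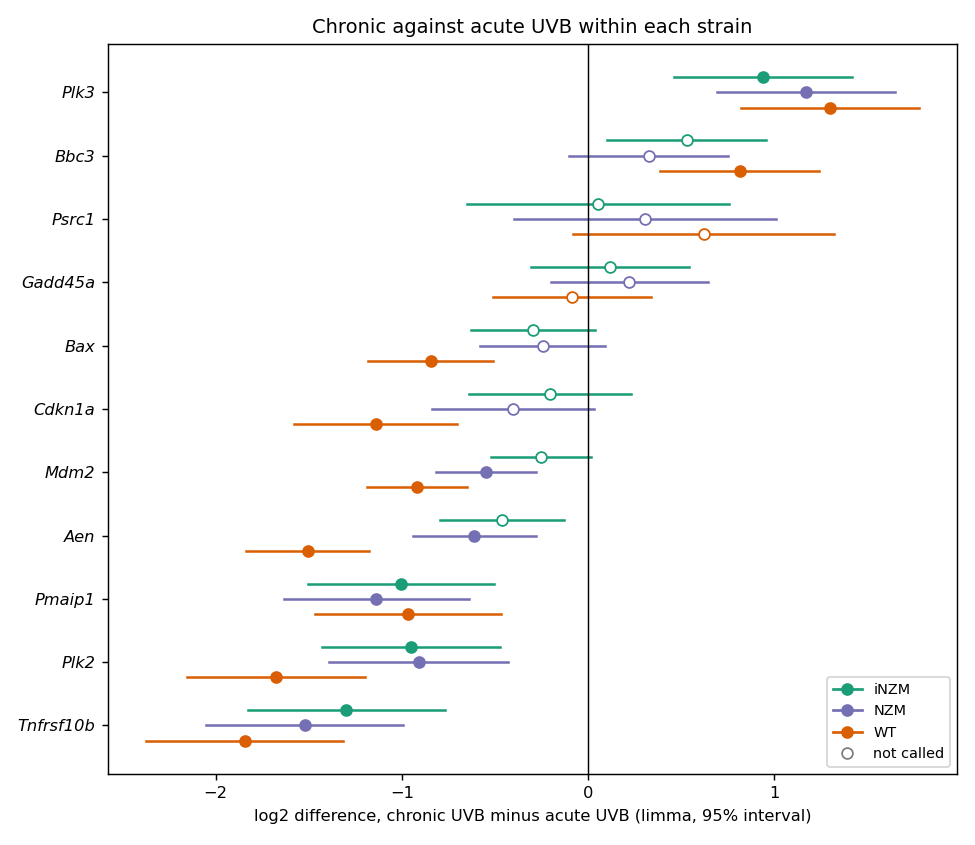
Log2 difference of chronic minus acute UVB (limma, points) with its 95% interval (lines) for 11 genes in iNZM, NZM and WT, with filled points where the adjusted p was below 0.05. Tnfrsf10b, Plk2 and Pmaip1 lie left of 0 and Plk3 right of 0 in all 3 strains.

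Strains were compared without UVB as NZM against WT and iNZM against NZM. Between iNZM and NZM none of the 34 was called, where 0 of 19170 genes were higher (0%) and 0.0313% lower. None of the 34 had an unadjusted p below 0.05 in that comparison, and edgeR and DESeq2 each called 0 of them. Over all genes edgeR called 0 higher and 5 lower, and DESeq2 12 and 69. Between NZM and WT 2 were higher and 2 lower in NZM, against 7.47% and 7.49% of all genes. At an unadjusted p below 0.05 there were 9 of the 34, and edgeR called 5 and DESeq2 7. Over all 19170 genes edgeR called 1452 higher and 1534 lower, and DESeq2 1723 and 1901. The share of all genes at that unadjusted p is not given here. Fbxw7 was at 1363, 1334, 1444, 1356 and 1593 normalised reads in NZM, against 988, 1120, 1130 and 834 in WT, and was higher in NZM without overlap (0.49 ± 0.11, limma adjusted p = 0.00258). Aen was at 969, 830, 897, 615 and 766 in NZM, against 1784, 1476, 1347 and 1106 in WT, lower in NZM without overlap (-0.80 ± 0.17, limma adjusted p = 0.00113). Ercc6l2, a helicase-like repair factor, was at 689, 553, 580, 595 and 545 normalised reads in NZM, against 340, 332, 402 and 492 in WT (0.61 ± 0.21, limma adjusted p = 0.0402). Zmat3 was at 523, 660, 702, 701 and 668 in NZM, against 864, 1032, 939 and 859 in WT (-0.51 ± 0.17, limma adjusted p = 0.0408). The groups did not overlap for either gene, but each of these last calls was lost without any of 8 single libraries.

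Whether the UVB response differed between strains was tested as an interaction. For acute UVB none of the 34 was called between NZM and WT, against 0.0522% of all genes higher and 0.0626% lower, and none between iNZM and NZM, against 0.00522% higher and 0% lower. At an unadjusted p below 0.05 there were 7 genes of the 34 between NZM and WT and 1 between iNZM and NZM, and edgeR and DESeq2 each called 0 of the 34 in both. Over all genes edgeR called 6 higher and 3 lower between NZM and WT, and 0 and 0 between iNZM and NZM. DESeq2 called 144 and 62, and 3 and 2. The share of all genes at that unadjusted p is not given here. The interval of the acute difference, NZM minus WT, was wide for most genes, as for Pmaip1 (-0.89 ± 0.36, limma adjusted p = 0.389), Bax (-0.80 ± 0.24, adjusted p = 0.205) and Cdkn1a (-0.68 ± 0.31, adjusted p = 0.455), all in the direction of a smaller rise in NZM. For iNZM minus NZM the acute differences were -0.74 ± 0.36 for Pmaip1, -0.51 ± 0.31 for Cdkn1a and 0.08 ± 0.24 for Bax (limma adjusted p = 0.787, 0.838 and 0.951). These tests do not show that the strains responded alike.

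For chronic UVB 2 of the 34 differed between NZM and WT, 1 higher and 1 lower, against 3.5% and 4.08% of all genes. Both counts were close to what these shares give for 34 genes. Aen was at 1055, 996, 1056, 1091 and 1127 normalised reads in chronic NZM skin and 993, 887, 1165, 1169 and 885 in chronic WT skin. Chronic levels overlapped between the strains, while the levels without UVB did not. The response of Aen was 0.40 ± 0.16 in NZM and -0.47 ± 0.17 in WT, a difference of 0.88 ± 0.24 (limma adjusted p = 0.0215), lost without NZM library 34 (adjusted p = 0.0508). Fbxw7 was at 1194, 1039, 1245, 1037 and 962 in chronic NZM skin and 1096, 1349, 932, 1233 and 1104 in chronic WT skin, which overlapped as well. Its response was -0.38 ± 0.11 in NZM and 0.17 ± 0.11 in WT, a difference of -0.54 ± 0.16 (limma adjusted p = 0.0282), lost without any of 6 single libraries. Pmaip1 was next, with a response smaller in NZM by -1.06 ± 0.36 (limma adjusted p = 0.0611). Between iNZM and NZM none of the 34 was called after chronic UVB, against 0% of all genes higher and 0% lower. There 1 of the 34 had an unadjusted p below 0.05, and edgeR and DESeq2 each called 0 of them. Over all genes edgeR called 0 higher and 0 lower, and DESeq2 67 and 307. The share of all genes at that unadjusted p is not given here.

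**Figure D5:**
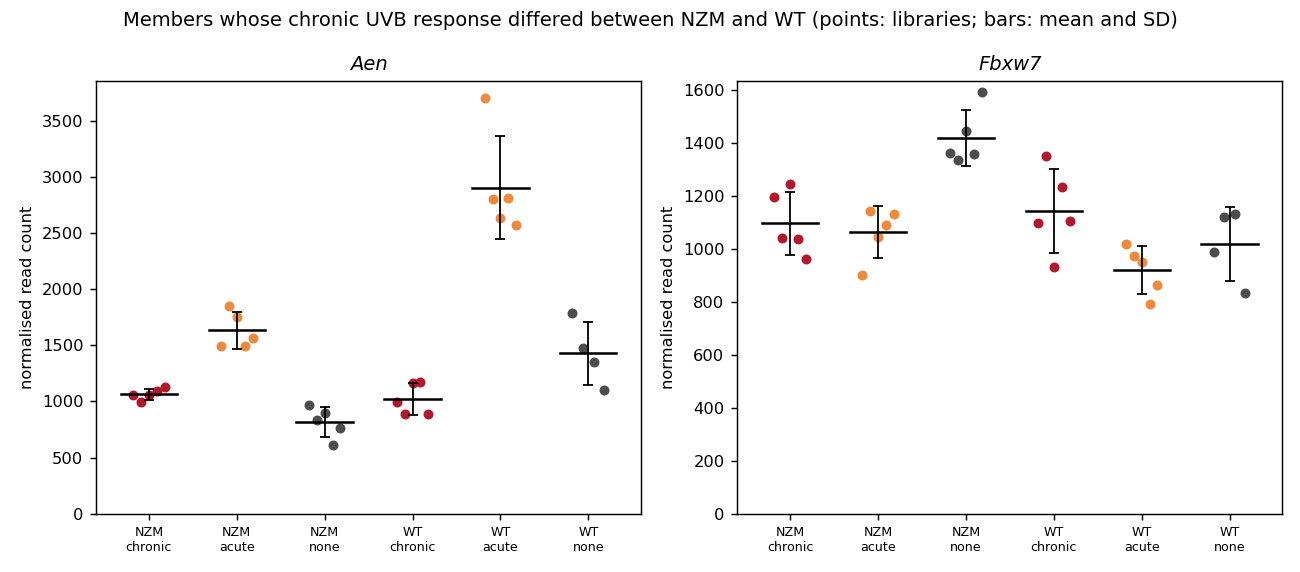
Normalised read counts of Aen and Fbxw7 in NZM and WT skin by regimen, with 1 point per library and bars at the mean and SD. For both genes the groups without UVB lie apart between the strains, Aen lower and Fbxw7 higher in NZM, and the chronic groups overlap.

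Other genes of the pathway, from lists of names that are no part of the 34, were mixed. Of 31 further p53 targets, 3 were higher and 9 lower in acute iNZM skin, 4 and 7 in acute NZM skin, and 7 and 4 in acute WT skin, where 12.8% and 12.4%, 10.6% and 10.7%, and 10.4% and 11.3% of all genes tested were higher and lower. After chronic UVB the counts were 5 and 9 in iNZM, 3 and 7 in NZM, and 5 and 7 in WT, beside shares of 13.1% and 15.7%, 9.2% and 9.78%, and 18.4% and 16.8% of all genes. Epha2, a receptor tyrosine kinase, rose after acute UVB by 1.44, 1.52 and 1.80 on the log2 scale in iNZM, NZM and WT, and Gtse1, a p53-binding mitotic protein, by 1.94, 1.83 and 2.54. Xpc, the lesion sensor of nucleotide excision repair, was lower in all 6 comparisons, by -0.53, -0.90 and -0.48 after acute and -0.46, -0.72 and -0.49 after chronic UVB in iNZM, NZM and WT. Cd82, a tetraspanin, was also lower in all 6, with differences between -1.54 and -0.76. Beside the same shares, of 27 regulators and damage kinases, 2 were higher and 1 lower in acute iNZM skin, 0 and 3 in NZM, and 0 and 7 in WT. Rfwd2, a ubiquitin ligase for p53, was lower in all 6 comparisons, with differences between -0.50 and -0.26, and after chronic UVB 3 regulators were higher and 2 lower in iNZM, 0 and 3 in NZM, and 3 and 4 in WT.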

How the data were processed

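The table holds counts of reads per gene divided by library size factors, a signal scale on which the authors deposited them; per the submitters' processing notes, STAR, HTSeq and DESeq2 were used with mm10, and no versions are given in the sources used here. Every value times its size factor was a whole read within 0.01 (100% of values). Genes with at least 10 in at least 4 libraries were kept, and log2(value + 1) was fitted with limma 3.58.1 (R 4.3.3, trend) over all 43 libraries with 1 mean per group, for 15 comparisons, with Benjamini-Hochberg adjustment at 0.05 over all 19170 genes. edgeR 4.0.16 (quasi-likelihood) and DESeq2 1.42.0 were run on the recovered reads as alternatives, and the code was tested on simulated data. Depth was 18.49 to 37.76 M reads. No pair of replicates agreed within sampling noise, with a chi-square per gene of at least 15 over 82 pairs.

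The members and lists were chosen with earlier results of these data known. Values in every library were planned for Trp53, Cdkn1a and Mdm2, for the 3 genes of smallest adjusted p in each comparison of UVB with no UVB, and for genes called between strains; other genes shown in full, and the named genes outside the 34, were chosen after their values were seen. Markers of hair shaft, inner root sheath, basal and suprabasal keratinocytes, fibroblasts, adipocytes, neutrophils and monocytes, macrophages and dendritic cells, T cells, endothelium and skeletal muscle were counted by the same test. Promoters were RefSeq windows of GRCm38.p6, and gene lengths GENCODE vM21. The alternatives were other pseudocounts, filters, scalings, samples, covariates, weights, tests and thresholds, and each library left out in turn.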

Additional observations from a re-analysis of the deposited data

Results flagged for a closer look

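In groups of 4 or 5 libraries, 1 library stood far from the others of its group by Dixon's criterion in 9 of 135 group tests over 15 genes; chance gives about 1 in 20. Trp53 was at 2415.38 normalised reads in acute NZM library 5, one of the libraries of high hair shaft level. Bax was at 466.844 in acute iNZM library 49, below the other acute iNZM libraries, and at 562.869 in chronic iNZM library 24, above the other chronic ones, and both libraries had a high hair shaft level. Pmaip1 was at 1313.62 in acute WT library 15. Psrc1 at 833.154 and Aen at 3698.36 were both highest in acute WT library 50. Without UVB, Gadd45a was lowest in iNZM library 40 at 174.15, and Ak1 and Ccng1 were both highest in NZM library 31, at 16427.5 and 15371.4, where Ckm was also highest of its group at 68412.

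The response to chronic UVB differed between NZM and WT for 2 genes of the 34 by the interaction test. Over all genes 3.5% were higher and 4.08% lower, so the count for the 34 did not exceed these shares. The Aen call was lost without NZM library 34, and the Fbxw7 call without any of several single libraries. Neither passed a threshold of 0.01. The difference, NZM minus WT, was 0.88 for Aen and -0.54 for Fbxw7 on the log2 scale.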

How the results depend on the processing

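No paired analysis was possible because the groups compared share fewer than 2 sample numbers in the labels. Counts of the 34 genes called moved by over 1.5 times as follows, with the cause not tested. After chronic UVB, NZM (15) had 6 at a threshold of 0.01 and 3 without the high hair shaft libraries, and iNZM (9) had 22 with quality weights and 5 at 0.01. Over all genes, NZM went from 1763 higher and 1875 lower to 562 and 716 at 0.01 and 494 and 512 without those libraries. All genes in iNZM went from 2520 and 3013 to 5021 and 5141 with weights and 933 and 1337 at 0.01. Between chronic and acute UVB, NZM (8) had 5 with only the compared groups fitted, 15 with weights and 4 at 0.01, and iNZM (5) had 0, 9 with weights, 8 with the muscle covariate and 11 without the hair libraries. Over all genes, NZM went from 726 higher and 721 lower to 459 and 423, 2623 and 2487, and 254 and 282 in the same order. All genes in iNZM went from 731 and 853 to 36 and 8, 1383 and 1837, 1798 and 1914, and 2092 and 2298. For NZM against WT without UVB (4) there were 8 with the hair covariate, 8 with weights, 7 by DESeq2, 2 at 0.01, 7 with the muscle covariate and 9 without the hair libraries. All genes there went from 1432 higher and 1436 lower to 2127 and 2131, 2310 and 2147, and 1723 and 1901 in that order. At 0.01 they were 783 and 727, with the muscle covariate 2301 and 2120, and without the hair libraries 2162 and 2180. The acute response of NZM against WT (0) and the chronic response of iNZM against NZM (0) each had 1 with weights. All genes then went from 10 higher and 12 lower to 149 and 125, and from 0 and 0 to 265 and 965. The chronic response of NZM against WT (2) had 4 with only the compared groups, 8 with the hair covariate, 6 with weights, 0 at 0.01, 7 with the muscle covariate and 5 without the hair libraries. All genes there went from 671 higher and 783 lower to 1113 and 1074, 2310 and 2002, and 1510 and 1578 in that order. At 0.01 they were 123 and 167, with the muscle covariate 1797 and 1819, and without the hair libraries 1055 and 910.

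Leaving out 1 library gave 9 to 15 calls after chronic UVB in NZM and 5 to 10 in iNZM. Between chronic and acute UVB it gave 5 to 8 in NZM and 2 to 7 in iNZM. For NZM against WT it gave 2 to 4 without UVB, 0 to 1 for the acute and 1 to 3 for the chronic response.

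With the muscle covariate, chronic Trp53 was -0.42 in iNZM and -0.0769 in WT and chronic Ccng1 0.10 in iNZM and 0.0207 in WT, each against the sign given above; without the hair libraries Trp53 in iNZM was -0.46. The muscle covariate and the removal of hair libraries were chosen after seeing the data. Of 130 calls, 41 were lost at 0.01, 25 with the muscle covariate, 24 without the hair libraries, 8 by edgeR and 4 by DESeq2. In the 6 comparisons with no UVB, limma called 3638 to 6761 genes, edgeR 3546 to 6812 and DESeq2 4410 to 7605. DESeq2 put 55.9% of calls higher in chronic iNZM skin, against 45.5% by limma.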

Other observations

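Other cell type markers moved with UVB too, by limma at an adjusted p of 0.05. T cell markers were lower, 5 of 8 in acute iNZM skin and 4 each in acute NZM and WT skin, and 8, 4 and 4 in chronic iNZM, NZM and WT skin, with none higher. Their summed count was 124 to 290 in chronic iNZM skin, against 1245 to 1614 in iNZM skin without UVB. Basal keratinocyte markers were lower for 5, 6 and 2 of 9 in acute iNZM, NZM and WT skin, with 1 higher in WT, and for 6, 8 and 1 after chronic UVB, with 2 higher in WT.

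Hair shaft markers were higher for 11 of 15 in chronic iNZM and 12 in chronic NZM skin and for 0 in chronic WT and in acute skin of any strain. Inner root sheath and matrix markers were higher for 10 and 7 of 13 in chronic iNZM and NZM skin. Fibroblast markers were lower for 6 of 8 in chronic iNZM and 5 in chronic WT skin, and higher for 3 in chronic NZM skin. Adipocyte markers were lower for 4, 0 and 5 of 7 in chronic iNZM, NZM and WT skin. Macrophage and dendritic markers were lower for 10, 2 and 4 of 10, and endothelial markers for 2, 0 and 1 of 6 in the same skin. Neutrophil and monocyte markers were lower for 5 of 13 in chronic iNZM skin and higher for 5 in chronic NZM and 7 in chronic WT skin.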
